A study of Rattus norvegicus with 12 samples.

Results

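The comparison described here is the injured spinal cord of AN (athymic nude) rats against that of SD (Sprague-Dawley) rats at 1 week after contusion. The genes described are those with an estimate in both strains, meaning rows of the 1-week expression table with a status of OK and an FPKM above 0 in both columns. These were 11837 of 17423 listed genes. Of the others, 5574 carried the status of no test, 3 had too many fragments, and 9 had the status OK but were listed at 0 in 1 strain. FPKM counts sequenced fragments per length of transcript and scales them for sequencing depth, so it allows levels to be compared between genes.

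The SD rats were of the strain Hsd:SD and the AN rats of the strain Hsd:RH-rnu/rnu. All were females 16 to 18 weeks old, and each group at 1 week held 3 of the 12 rats in the series. Every rat, in both strains, received a laminectomy in the thoracic spine and a moderate contusion at a force of 200 kdyn, with buprenorphine and amoxicillin after surgery. A segment of 1 mm through the injury site was taken after perfusion with saline, and polyadenylated RNA was sequenced. No uninjured cord was sequenced, so a lower level in AN rats is lower than in injured SD cord and not than in healthy cord. The AN rats carry the nude mutation on a genetic background other than that of SD rats, and the lack of T cells and the rest of the strain difference cannot be told apart in this design.

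The table holds 1 pooled FPKM for the 3 rats of a strain. No spread between rats could be computed from it, and no test, P value or standard error is given for any difference below. A gene is counted as lower or higher where the pooled levels differ at least 2-fold, and log2 ratios are of the AN over the SD level. The number of fragments behind each gene is not in the table, so the depth behind a single value is unknown.

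A contusion kills neurons and glia at the impact site within hours, and macrophages, both resident microglia and cells from the blood, then clear the debris. T cells enter the lesion in the following days. CD4+ helper T cells release cytokines that activate macrophages, and CD8+ cytotoxic T cells kill cells that display foreign or self antigen. Rats with the nude mutation lack a functional thymus, where T cells mature, while their natural killer (NK) cells, B cells and macrophages arise without it.

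The distribution of differences was lopsided. Of the 11837 genes, 1503 were at least 2-fold lower in AN rats (12.7%) and 254 were at least 2-fold higher (2.15%), which is 5.92 genes lower for each gene higher. At 4-fold the counts were 522 and 38, and at 8-fold they were 199 and 15. The middle of the distribution was near no difference, with a median log2 ratio of -0.01 and a 95% order-statistic interval over genes of -0.02 to -0.003. Rescaling both columns to the same summed FPKM would lower every log2 ratio by 0.12. The 10th percentile was -1.21 and the 90th percentile 0.50, so the long tail lay on the side of lower levels in AN rats. Levels as a whole were alike, with a median of 15.4 FPKM in SD rats and 14.9 in AN rats.

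**Figure D1:**
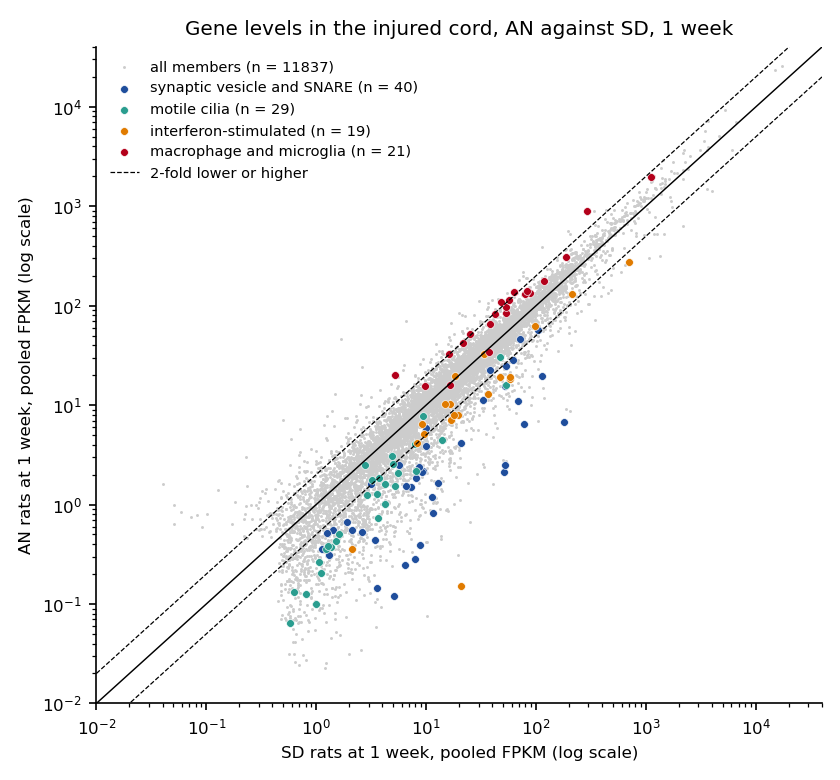
Pooled FPKM of each of 11837 genes in SD rats (horizontal, log scale) and AN rats (vertical, log scale) at 1 week, with 4 gene lists in colour, the line of equal levels (solid) and the 2-fold lines (dashed). The 40 synaptic genes and the 29 motile cilia genes all lie below the line of equal levels, 18 of the 19 interferon-stimulated genes do, and 19 of the 21 macrophage and microglia genes lie above it.

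Symbols could be given to 4038 of the 11837 genes, and how they were obtained bears on each count below. The table lists identifiers of the Rat Genome Database without symbols. Some symbols came from a shortened copy of the study's gene table, and every gene in that copy is one the study itself had called different between the strains at 1 week. Of its 1991 genes, 58.6% were at least 2-fold lower and 8.54% at least 2-fold higher in AN rats. Further symbols came from a reference gene table that knows nothing of these data. It names 2440 genes, 2111 of them named by it alone. Of the 2440, 11.2% were at least 2-fold lower and 1.35% at least 2-fold higher. A count over named members of a gene list was therefore weighted towards genes that differ, and it describes those members only. Symbols were at hand for 79.3% of the genes at least 2-fold lower, for 67.3% of those at least 2-fold higher and for 26.5% of the rest. Where a list holds 6 or more members named by the reference table, their count is given as well. In each such list, every member at least 2-fold apart is also in the study's copy, so the counts from both sources share these members.

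T cell genes were checked first, since they bear on the label of the strains. Cd3g, which encodes a chain of the CD3 complex of the T cell receptor, was measured at 2.74 FPKM in SD rats and 0.531 in AN rats (RN4 chromosome 8, 47924369 to 47930550). This is a log2 ratio of -2.37, and the level in AN rats was low but not 0. Bcl11b, a transcription factor of T cell development that neurons also use, had 0.523 and 0.142. Cd4, the coreceptor of helper T cells, which rat macrophages also carry, had 102 and 44.4 (log2 ratio -1.20). Thy1, a surface protein of rat neurons as well as thymocytes, had 140 and 50.3.

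Cd8a went the other way. It encodes the coreceptor chain of cytotoxic T cells, which rat NK cells and macrophages can also carry, and it was measured at 76.0 FPKM in SD rats and 199 in AN rats (log2 ratio 1.39, RN4 chromosome 4, 104589922 to 104594159). Of the 44 genes in the list of T cell genes 7 could be named and these 5 were in the comparison, and 4 were at least 2-fold lower and 1 at least 2-fold higher. All 5 came from the study's gene table with its 58.6% lower. Cd3d, Cd3e, Cd8b and Foxn1, the gene mutated in nude animals, were not analysed here. In bulk tissue, fewer cells of a type and less RNA per cell cannot be told apart, and this holds for every list below.

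Other lymphoid genes were few. Klra5, which encodes an NK cell receptor of the Ly49 family, was measured at 15.9 FPKM in SD rats and 28.3 in AN rats (log2 ratio 0.83). Ly49si2, a gene of the same family, had 2.57 and 12.7 (log2 ratio 2.30). The Ly49 genes are near-identical copies in a cluster, so fragments can be split between them and each value is uncertain. Ctsw, the cathepsin of cytotoxic lymphocytes, had 1.81 and 0.527, and Cd22, an inhibitory receptor of B cells, had 10.4 and 3.52. No defining B cell, mast cell or granulocyte marker among those listed could be named.

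Named genes of macrophages and microglia lay mostly above 0. Of 21 named members (of 53 listed), 7 were at least 2-fold higher and none at least 2-fold lower, and 19 had a log2 ratio above 0, with a list median of 0.81. Among the 18 named by the study's gene table, 7 were at least 2-fold higher, against 8.54% of all genes it names. Cd163, the scavenger receptor for haemoglobin bound to haptoglobin, was measured at 5.19 FPKM in SD rats and 20.1 in AN rats (log2 ratio 1.95). Hmox1, the enzyme that breaks down heme, had 293 and 907 (log2 ratio 1.63), and was among the 10 most abundant named genes of AN rats. Cd14, the coreceptor for bacterial lipopolysaccharide, had 48.1 and 108, and Itgam, the CD11b chain of the complement receptor of myeloid cells, had 63.2 and 137.

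Members that were less than 2-fold apart were mostly on the same side. C1qc, a chain of the complement protein C1q and the most abundant of the list, had 1116 in SD and 1956 in AN rats. The fractalkine receptor gene Cx3cr1, strong in microglia, had 87.8 and 134, Mrc1, the mannose receptor, had 42.5 and 82.3, and Mmp12, the macrophage elastase, had 53.1 and 96.0. The members named by the reference table included Tmem119, a marker of resident microglia, with 37.4 and 34.4, and Itgax, the CD11c chain, with 16.6 and 15.8. Clec7a, a receptor for fungal glucans, had 118 and 175. With both columns rescaled to the same sum, 14.3% of the list in place of 7 of 21 genes was at least 2-fold higher. Cd68, Csf1r and Aif1 were not analysed here.

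Named cytokine genes lay mostly above 0. Among interleukins, tumour necrosis factor family members and their receptors, 13 of 16 named genes were above 0, with a median of 0.87. Of the 16, 6 were at least 2-fold higher in AN rats and 2 at least 2-fold lower. All 8 were among the 13 named by the study's gene table, with its shares of 8.54% higher and 58.6% lower. Il33, an alarm cytokine stored in glial nuclei, was measured at 75.9 FPKM in SD rats and 220 in AN rats (log2 ratio 1.53). The gene for its receptor, Il1rl1, had 1.95 and 5.2. Il1a, which encodes interleukin 1 alpha, had 3.03 and 6.79.

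The interleukin 6 family and its receptors had members on both sides. Il6 had 0.457 in SD and 1.76 in AN rats, and Il11 had 0.896 and 3.60. Osmr, which encodes the oncostatin M receptor of that family, had 10.4 and 18.4, and Il4r, a receptor chain for interleukins 4 and 13, had 36.8 and 78.2. At least 2-fold lower were 2 members of that family, Cntf, a survival factor for motor neurons made by glia, with 47.4 and 18.0 (log2 ratio -1.39), and Lifr, the receptor for leukaemia inhibitory factor, with 7.11 and 3.18.

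Of 10 named chemokine and chemokine receptor genes, 4 were at least 2-fold higher and 4 at least 2-fold lower. The study's gene table, with 8.54% higher and 58.6% lower, named 9 of them. Ccl20, a ligand that attracts lymphocytes and dendritic cells, was measured at 0.499 FPKM in SD rats and 7.16 in AN rats, which is 14.3-fold higher. Pf4, platelet factor 4, had 292 and 832, Cxcl1, which attracts neutrophils, had 2.82 and 9.51, and Ccr1, a receptor of monocytes and neutrophils, had 2.50 and 10.2. Cxcl13, which attracts B cells, had 7.15 and 1.41 (log2 ratio -2.35), and Cxcl14 had 296 and 104. Cxcr4, the receptor for Cxcl12, had 68.9 and 108.

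Antigen presentation and complement showed no common direction. Cd74, the invariant chain that escorts MHC class II molecules, was measured at 168 FPKM in SD rats and 88.8 in AN rats, while Ifi30, a lysosomal reductase of antigen processing, had 486 and 830. RT1-Db2, a rat MHC class II gene, was listed at 0.899 in SD rats and at 0 in AN rats, and RT1-N1, a class I gene, at 4.84 and 0. Whether fragments of both strains map equally well to the RN4 genome at these genes was not tested. Of 9 named complement genes, Clu (1268 and 524) and Cfb (22 and 10.7) were at least 2-fold lower in AN rats and none was at least 2-fold higher, while the study's gene table, which named 8 of them, had 58.6% lower.

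Named interferon-stimulated genes lay mostly below 0, and most of them had been called different by the study. Interferons switch on antiviral genes, many of which carry an interferon-stimulated response element in their promoters. Of 19 named members (of 54 listed), 10 were at least 2-fold lower and none at least 2-fold higher, 18 had a log2 ratio below 0 and the median was -1.15. All 10 were among the 15 named by the study's gene table, where 58.6% of all genes were at least 2-fold lower. All 15 were below 0, against 75.8% of its 1927 genes that could be named. Neither count was tested. Ifit1, which encodes a sensor of viral RNA ends, was measured at 20.8 FPKM in SD rats and 0.152 in AN rats (log2 ratio -7.10, RN4 chromosome 1, 238609171 to 238611236). This was the lowest log2 ratio of all 11837 genes, and Ifit genes have similar copies, so fragments could be split between them.

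The other members differed by less. Irf7, the factor that amplifies interferon production, had 57.5 and 19.1 (log2 ratio -1.59). The dynamin-like antiviral genes Mx1 (47.0 and 19) and Mx2 (57.5 and 18.5) were both lower. Cxcl10, which draws T cells, had 36.6 and 13, Ifi27 had 697 and 278, and Oas1a, an antiviral synthetase, had 16.8 and 7.07. The 4 members named by the reference table lay nearer to no difference, from -0.53 for Dhx58 to 0.10 for Parp14, and none of them was at least 2-fold lower.

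Promoters of these genes were searched for the core of the response element. The letters GAAA, any 2 bases and GAAA again were sought on both strands in the 250 bases before and 50 bases after each start in RefSeq (GRCr8). Of the 14 named interferon-stimulated genes with a promoter there, 10 held a match (71.4%), against 4.12% of all 27457 symbols. A match is a description of the letters and not evidence of binding. The list was drawn up as interferon-stimulated genes, so the share describes the list and says nothing about the strains. Stretches around the match, taken from the 3 members with a match that lie lowest in AN rats and from Oas1a and Oas1b, whose stretches are nearly alike, are printed 5′ to 3′ on the strand of the gene, with the matching letters in capitals. The first capital lies 69 bases before the gene start in Irf7, 243 in Cxcl10, 169 in Ifi27, 41 in Oas1a and 59 in Oas1b. Ifi27 holds a second match outside its stretch, and the capitals of Oas1a and Oas1b are 2 overlapping matches each.
Irf7, chr1:205800068-205800107, minus strand: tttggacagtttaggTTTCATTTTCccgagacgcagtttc
Cxcl10, chr14:15988816-15988847, plus strand: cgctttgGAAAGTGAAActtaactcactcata
Ifi27, chr6:128355128-128355167, plus strand: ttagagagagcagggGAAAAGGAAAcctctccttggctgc
Oas1a, chr12:41330410-41330449, plus strand: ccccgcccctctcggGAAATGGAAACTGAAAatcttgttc
Oas1b, chr12:41395887-41395926, minus strand: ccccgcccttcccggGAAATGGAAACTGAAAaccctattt
Of the 10 genes with a match, 4 were less than 2-fold apart, namely Bst2 (211 and 132), Psmb8 (97.6 and 63.2), Ifih1 (9.10 and 6.42) and Parp14 (18.5 and 19.8).

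Genes of neurons were lower in AN rats in each of 5 lists. In the list of synaptic vesicle and SNARE genes, whose products load, dock and fuse transmitter vesicles, 35 of 40 named members (of 65 listed) were at least 2-fold lower in AN rats, and all 40 were below 0, with a median log2 ratio of -2.11. In this and the other neuronal lists, nearly all names came from the study's gene table, so their counts are read against its 58.6%. Of the 40 synaptic genes, 26 reached 1 FPKM in both strains, and 80.8% of these were at least 2-fold lower. With 1 FPKM added to both columns, 72.5% of the list was. Snap25, a core SNARE protein, was measured at 179 FPKM in SD rats and 6.79 in AN rats, 26.3-fold lower (RN4 chromosome 3, 124806637 to 124894653). No named gene that reached 1 FPKM in both strains had a lower log2 ratio. Cplx1, which clamps the SNARE complex until calcium arrives, had 51.0 and 2.13, Syp, a membrane protein of synaptic vesicles, had 78.5 and 6.48, and Sncb, beta-synuclein, had 52.5 and 2.48.

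Transmitter markers of several neuron classes were among them. Slc6a5, the glycine transporter of inhibitory spinal neurons, had 5.06 in SD and 0.121 in AN rats (log2 ratio -5.38). Slc18a3 and Slc5a7, which package acetylcholine and take up choline in motor neurons, had 6.39 and 0.246, and 3.56 and 0.145. Slc32a1, the vesicular transporter for GABA and glycine, had 8.73 and 0.393, and Slc17a6, the vesicular glutamate transporter, had 7.36 and 1.51. Of these 5 markers, Slc17a6 alone reached 1 FPKM in both strains, and it was 4.87-fold lower in AN rats. The others were below 1 FPKM in AN rats.

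Cytoskeletal genes of the axon gave a like picture, with 35 of 40 named members at least 2-fold lower and a median of -1.94. Nefl, the light neurofilament chain, was measured at 205 FPKM in SD rats and 8.68 in AN rats (log2 ratio -4.56, RN4 chromosome 15, 47636290 to 47640176), and Nefm, the medium chain, had 189 and 9.14. Prph, peripherin, an intermediate filament of motor and sensory neurons, had 53.1 and 2.71. Gap43, a protein of growing axons, had 134 and 57.0, and Stmn1 and Tubb2b, which dividing and immature cells also use, had 188 and 123, and 214 and 149.

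Of 43 named genes for receptors of glutamate, GABA, glycine and other transmitters and for their scaffolds, 38 were at least 2-fold lower, with a median of -2.11. Grin1, the obligatory subunit of the NMDA receptor, had 12.3 in SD and 1.03 in AN rats (log2 ratio -3.59). Glra1, the adult glycine receptor subunit, had 3.78 and 0.302. Gabrg1, another GABA receptor subunit, had 18.6 and 6.02, and Gria2, an AMPA receptor subunit, had 11.1 and 3.83. In this list 18 members had at least 1 FPKM in both strains, and 72.2% of these were at least 2-fold lower. With 1 FPKM added to both columns, 58.1% of the whole list was.

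Ion channel genes followed. Of 20 named genes of voltage-gated potassium channels and their partners, 18 were at least 2-fold lower and none at least 2-fold higher, with a median of -1.65. Of the 20, 10 reached 1 FPKM in both strains, and 80% of these were at least 2-fold lower. With 1 FPKM added to both columns, 70% of the list was. Kcnc1, a channel of fast-firing neurons, had 6.13 and 0.338. Kcna1, which sits beside the nodes of Ranvier under the myelin, had 14.1 and 5.64, and Kcna6 had 23.5 and 8.54. The member above 0 was Kcna3, the main potassium channel of T cells and activated microglia, with 4.10 and 7.72 (log2 ratio 0.91).

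Sodium, calcium and HCN channel genes had 22 of 23 named members at least 2-fold lower and a median of -2.08. Of the 23, 11 reached 1 FPKM in both strains, and 90.9% of these were at least 2-fold lower. With 1 FPKM added to both columns, 78.3% of the list was. Scn1a, a sodium channel of inhibitory neurons, had 4.90 in SD and 0.240 in AN rats, and Cacng2, stargazin, which anchors AMPA receptors at synapses, had 3.45 and 0.106 (log2 ratio -5.03). Hcn2, a pacemaker channel, was more abundant at 57.8 and 21.4. Among axon guidance genes, 12 of 25 named members were at least 2-fold lower, with a median of -0.96. All 12 were among the 21 named by the study's gene table, near its share of 58.6%, and with 1 FPKM added 28% of the list was at least 2-fold lower. Lingo1, a neuronal partner of the Nogo receptor, had 11.9 and 1.71, Sema3b, a secreted repellent, had 83.3 and 31.6, and Ntn1, netrin 1, had 30.7 and 50.5. Of the 6 axon guidance members named by the reference table, 1 was at least 2-fold lower, against 11.2% of all genes it names. All 6 were below 0, as were 51.3% of the 11837 genes.

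**Figure D2:**
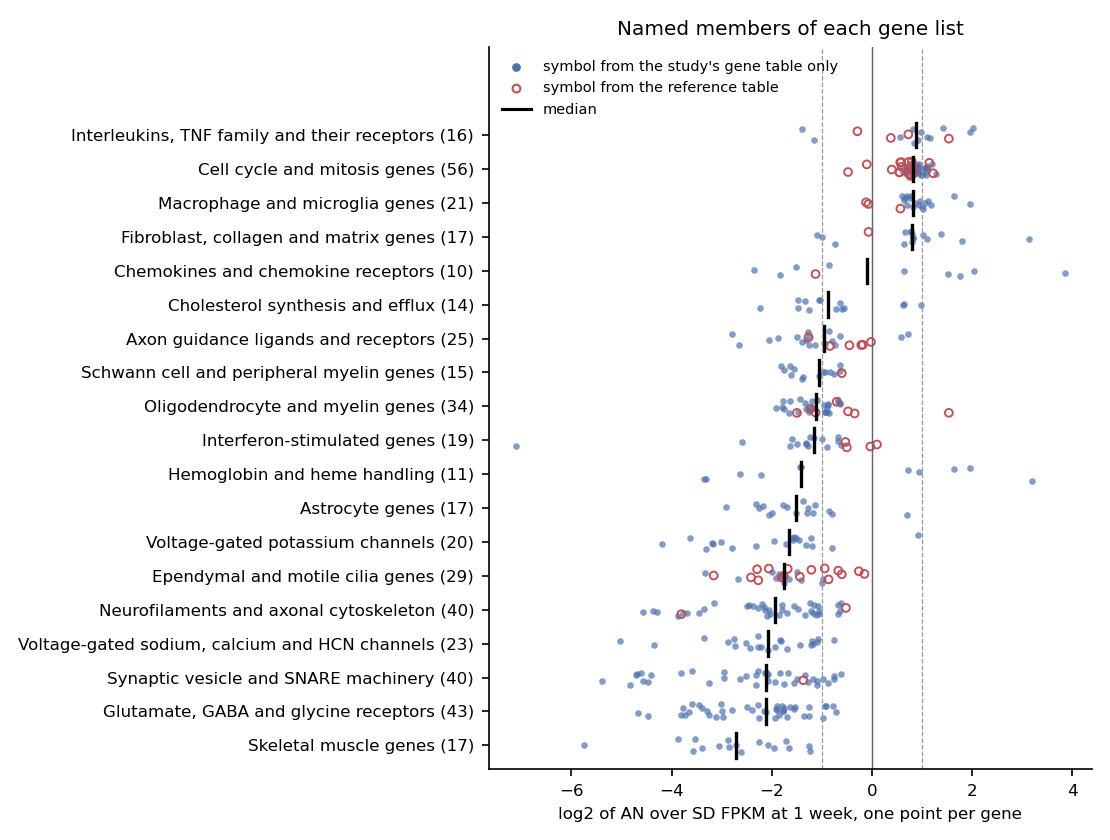
Log2 ratio of AN over SD FPKM at 1 week for each named member (points, with random vertical jitter) of the 19 gene lists with at least 10 named members, with the median as a bar and the 2-fold limits dashed. Medians run from -2.71 for skeletal muscle genes to 0.87 for interleukins, and open red points are members named by the reference table, with a median of -1.56 among motile cilia and 0.73 among cell cycle genes.

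Named genes of myelinating cells and astrocytes lay mostly below 0. Of 34 named oligodendrocyte genes (of 57 listed), 18 were at least 2-fold lower, with a median of -1.11. All 18 were among the 32 named by the study's gene table, which is near its share of 58.6%. Mobp, a protein of compact central myelin, was measured at 200 FPKM in SD rats and 53.2 in AN rats (log2 ratio -1.91). Mog, on the outer face of the myelin sheath, had 134 and 49.2, and Mag, at its inner face, had 486 and 202. The lineage factors Olig1 (132 and 68.8) and Olig2 (43.7 and 27.2) were less than 2-fold apart. Il33, which oligodendrocytes make and which was described above, was the exception on the high side. The reference table named 7 members, of which 3 were at least 2-fold lower and 1, again Il33, at least 2-fold higher, against 11.2% and 1.35% of all genes it names.

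Schwann cells myelinate nerve roots and enter contused cord from them. Their genes had 8 of 15 named members at least 2-fold lower and a median of -1.07, and since the study's gene table named all 15, the count is below its share of 58.6%. Prx, periaxin, had 60.1 and 19.7, and Pmp22 had 500 and 239. Ngfr, the low-affinity nerve growth factor receptor that Schwann cells carry after they lose their axon, had 54.9 and 35.3.

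Astrocyte genes had 14 of 17 named members (of 47 listed) at least 2-fold lower and a median of -1.51, all named by the study's gene table with its share of 58.6%. S100b, a calcium-binding protein, had 2173 in SD and 635 in AN rats, and Slc1a2, the transporter that clears most synaptic glutamate, had 59.5 and 18.4. Agt, angiotensinogen, had 157 and 35.0, and Itih3 had 91.5 and 12.1 (log2 ratio -2.91). Mt3, a neural metallothionein outside the list, had 1349.7 and 314. The water channel gene Aqp1 was the member above 0, with 7.88 and 12.8. Gfap, Aqp4 and Slc1a3 were not analysed here.

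Named genes of ependymal cells, which line the central canal of the cord, and of their motile cilia all lay below 0. Of 29 named members (of 75 listed) 22 were at least 2-fold lower, all 29 were below 0 and the median was -1.75. Of the 16 named by the reference table, 10 were at least 2-fold lower, against 11.2% of all genes it names, and their median was -1.56. That share is over genes of all levels, and 17 of the 29 members reached 1 FPKM in both strains, of which 58.8% were at least 2-fold lower. Rsph4a, a radial spoke protein, was measured at 1.00 FPKM in SD rats and 0.0993 in AN rats, and Dnah12, a dynein heavy chain, had 8.13 and 2.16. Cfap126 (3.62 and 0.738) and Cfap144 (4.23 and 1.01) encode proteins of the cilium. Rfx4, a transcription factor of ciliated and neural cells, had 14 and 4.44. With 1 FPKM added to both columns, 31.0% of the list was at least 2-fold lower. Sox2, a stem cell factor in ependymal cells and other glia, had 46.5 and 30.6.

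Named matrix genes lay mostly above 0. Of 17 named fibroblast, collagen and matrix genes (of 75 listed), 5 were at least 2-fold higher and 1 at least 2-fold lower, with a median of 0.79. The 5 were among 16 named by the study's gene table, with its share of 8.54%. With columns rescaled to the same sum, 17.6% of the list was at least 2-fold higher and 11.8% at least 2-fold lower. Postn, periostin, a protein of scar-forming fibroblasts, was measured at 113 FPKM in SD rats and 392 in AN rats (log2 ratio 1.80). Tnn, tenascin N, had 1.48 and 12.9, and Lox, the enzyme that crosslinks collagen, had 45.1 and 117. Serpinh1, the collagen chaperone, was less than 2-fold apart at 364 and 627. Mgp, matrix Gla protein, which no list holds, was the most abundant named gene of AN rats with 1441 and 2940.5. Col1a1, Col3a1, Dcn and Lum were not analysed here.

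Proteolysis genes held the highest log2 ratio of the named genes that reached 1 FPKM in both strains. Mmp7, matrilysin, a small metalloproteinase, had 1.69 in SD and 46.3 in AN rats, 27.4-fold higher (log2 ratio 4.77, RN4 chromosome 8, 4526018 to 4533730). Plau, the urokinase that activates plasminogen, had 58.5 and 108. Adam8, a surface protease of myeloid cells, had 22.7 and 79.3. Of 7 named members 3 were at least 2-fold higher and none at least 2-fold lower, all from the study's gene table with its 8.54% higher and 58.6% lower. Adamts4, which cleaves aggrecan and is strong in oligodendrocytes, had 61.9 and 39.8.

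**Figure D3:**
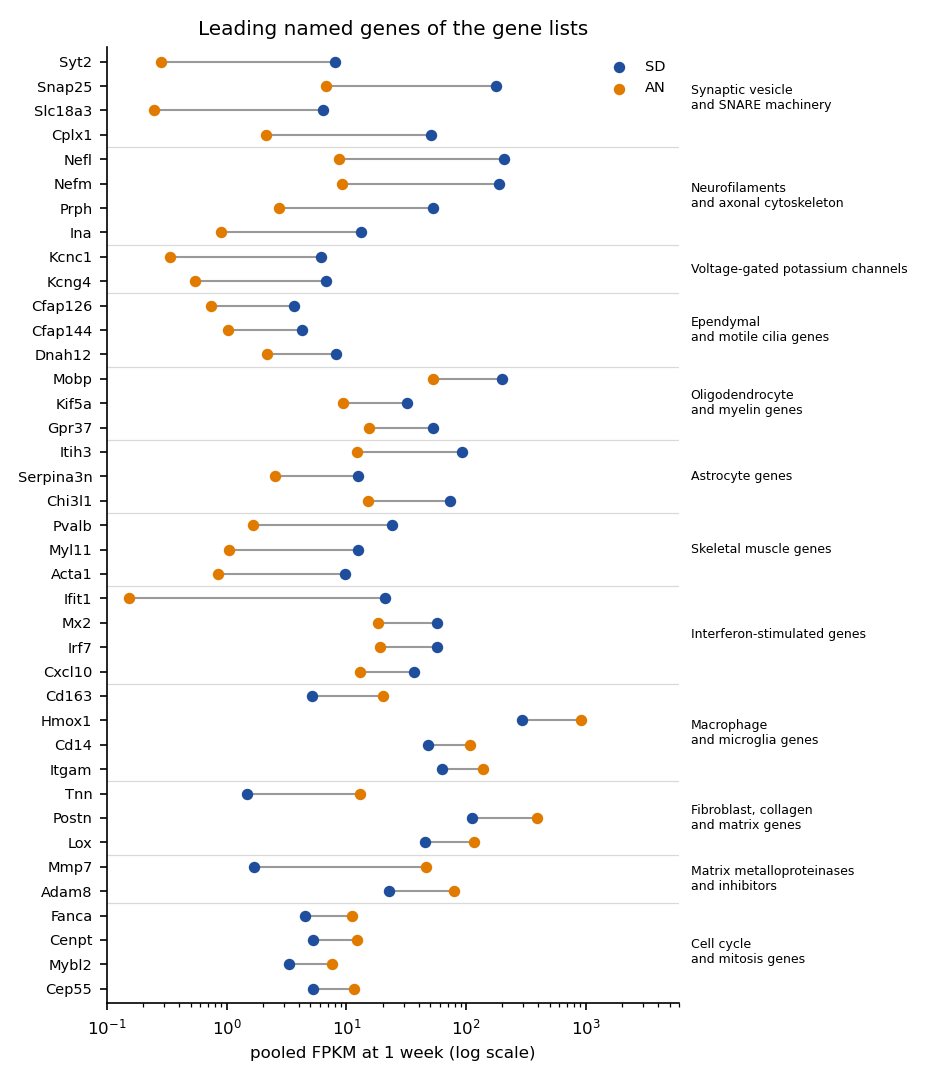
Pooled FPKM (log scale) in SD (blue) and AN rats (orange) at 1 week for genes among those with the largest log2 ratios in 12 gene lists and a geometric mean of at least 1 FPKM. AN levels lie to the left of SD levels for neuronal, glial, cilia, muscle and interferon genes and to the right for macrophage, matrix, protease and cell cycle genes.

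Named cell cycle genes lay mostly above 0, and most of them were less than 2-fold apart. Of 56 named members (of 154 listed) 54 were above 0 and 12 were at least 2-fold higher, none was at least 2-fold lower, and the median was 0.82. All 12 were among the 44 named by the study's gene table, with its share of 8.54% higher. The share at least 2-fold higher was 8.93% with columns rescaled to the same sum and 10.7% with 1 FPKM added, and not 12 of 56. Mki67, the proliferation antigen, was measured at 12.2 FPKM in SD rats and 26.6 in AN rats (log2 ratio 1.12). Cdk1, the kinase that drives entry into mitosis, had 35.3 and 64.1, and its cyclin partner gene Ccnb1 had 18.5 and 38.7. Mybl2, a transcription factor of the late cell cycle, had 3.30 and 7.60, and Fanca, a DNA repair gene, had 4.54 and 11.1. The members below 0 were Anln (2.76 and 1.98), which myelinating oligodendrocytes also use, and Gins2 (8.97 and 8.35). Of the 17 members named by the reference table, 15 were above 0 with a median of 0.73, and 2 were at least 2-fold higher against 1.35% of all genes it names.

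The promoters of these genes were searched in the same way for the letters TTTGAA, the core of the cell cycle genes homology region. Of 45 with a promoter in RefSeq, 28 held a match on either strand (62.2%), against 19.4% of all 27457 symbols. Again this describes letters only, and the share says nothing about the strains. Stretches from the 3 members with a match and the highest log2 ratios are printed, again on the strand of the gene with the match in capitals. The first capital lies 47 bases before the gene start in Cep55, 117 in Mki67 and 24 in Iqgap3. Mki67 holds a second match, which runs past the end of its stretch and is not in capitals.
Cep55, chr1:245245301-245245336, plus strand: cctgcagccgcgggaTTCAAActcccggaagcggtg
Mki67, chr1:199952690-199952725, minus strand: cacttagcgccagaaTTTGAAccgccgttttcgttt
Iqgap3, chr2:175839962-175839997, plus strand: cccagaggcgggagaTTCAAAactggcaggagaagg
Cep55, which acts in the last step of cell division, had 5.28 and 11.7, and Iqgap3 had 11.4 and 23.8.

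Genes of tissues that a cord segment may carry along differed as well. All 17 named skeletal muscle genes (of 49 listed) were at least 2-fold lower in AN rats, with a median of -2.71, and they were all named by the study's gene table with its share of 58.6%. Of the 17, 5 reached 1 FPKM in both strains, and with 1 FPKM added 52.9% of the list was at least 2-fold lower. Their levels summed to 128 FPKM in SD rats and 27.6 in AN rats. Acta1, the skeletal actin, had 9.76 and 0.847, Tnnc2, fast troponin C, had 14.2 and 1.72, and Myl11, a fast myosin light chain, had 12.4 and 1.05. Pvalb had 24.0 and 1.65, and serves inhibitory and sensory neurons as well as muscle. The defining muscle markers Acta1 and Tnnc2 were thus below 2 FPKM in AN rats, and whether muscle attached to the segment took part in other differences was not tested.

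Genes of red cells and of heme handling lay on both sides. Hba-a2, an alpha globin gene, was measured at 595 FPKM in SD rats and 220 in AN rats, and the beta globin genes, listed as 2 rows under the symbol Hbb, had 91.2 and 19.6, and 56.6 and 9.07. Globin genes are near-identical copies, which makes each value uncertain. Ahsp, which stabilises alpha globin in red cell precursors, had 2.43 and 0.244. Hp, haptoglobin, which binds free haemoglobin, went the other way with 2.62 and 23.9 (log2 ratio 3.19), as did Hmox1 and Cd163 among the macrophage genes above. Of 11 named members 6 were at least 2-fold lower and 3 at least 2-fold higher, all from the study's gene table with its 58.6% lower and 8.54% higher.

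Sterol and clock genes were smaller lists. Of 14 named genes of cholesterol synthesis and transport, 7 were at least 2-fold lower in AN rats, below the 58.6% of the study's gene table, which named all 14. Cyp46a1, the neuronal enzyme that removes cholesterol from the brain, had 12.7 and 2.68, while Apoc1, an apolipoprotein of macrophages, had 183 and 359. All 6 named clock genes were below 0, against 75.8% of the genes named by the same table, which named all 6. Of the 6, 4 were at least 2-fold lower, near its 58.6%. Dbp, an output factor of the clock, had 68.0 and 26.6 (log2 ratio -1.35), Per3 had 16.7 and 7.64, and Ciart had 9.76 and 3.06.

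At the extremes, several genes belonged to no list. Ckmt1, a mitochondrial creatine kinase, had 40.5 in SD and 1.62 in AN rats, and Eef1a2, the elongation factor form of neurons and muscle, had 49.9 and 2.80. Pcp4, a calmodulin regulator of neurons, had 103 and 7. On the high side, Cd5l, a secreted protein of macrophages, had 1.17 and 6.38, Galnt12, a glycosyltransferase, had 1.26 and 7.76, and Rnase10 had 1.40 and 8.78. Others among the extremes have near-identical copies elsewhere in the genome. These were Lyz2 (20.5 and 1.12), Rps10 (6.57 and 70.5) and Rpl30 (28.9 and 2.05), and their values are uncertain, since the mapping could assign fragments to another copy.

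The share of genes at least 2-fold lower depended on level. It was 53.2% among 884 genes with a geometric mean below 1 FPKM, 19.6% among 3732 genes from 1 to 10, 4.21% among 6200 genes from 10 to 100 and 3.92% among 1021 genes at 100 or over. The shares at least 2-fold higher were 6.11%, 2.92%, 1.26% and 1.27%. A low gene can pass the status filter through the strain in which it is higher, so the shares below 1 FPKM are no support for a difference. With at least 1 FPKM in both strains, 785 genes were at least 2-fold lower and 173 at least 2-fold higher.

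Locus length and chromosome made smaller differences. Genes that were alone at their locus were put in 4 equal groups by span. The group with the longest loci, with a median of 90.8 kb, had 17.0% at least 2-fold lower (95% Wilson interval 15.6% to 18.4%, for counting error over genes only). The group with the shortest loci, with a median of 3.17 kb, had 12.8% (11.6% to 14.1%). In both groups between them the share was 11.1%. The shares at least 2-fold higher were 1.23% among the longest and 2.95% among the shortest loci. By chromosome, the share at least 2-fold lower lay between 9.86% on chromosome 17 and 14% on chromosome 15.

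**Figure D4:**
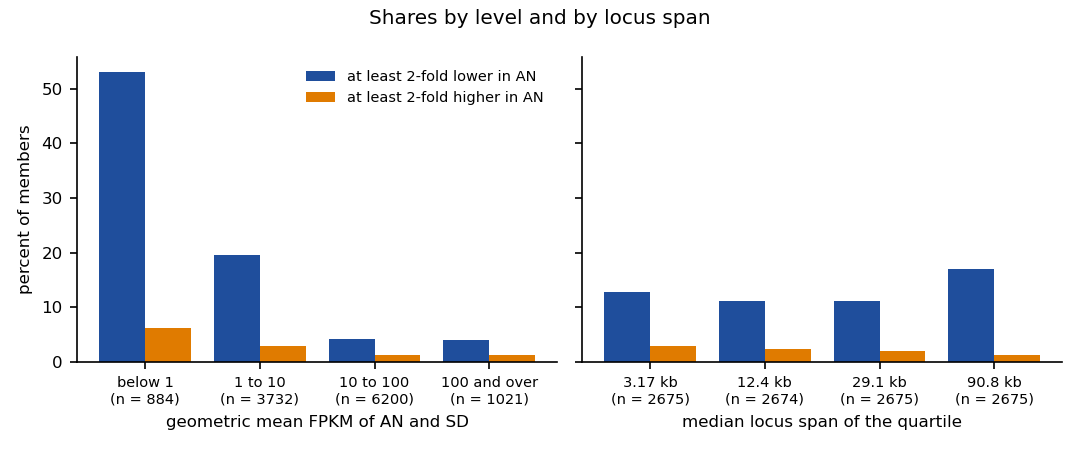
Percent of genes at least 2-fold lower (blue) or higher (orange) in AN rats at 1 week, by geometric mean FPKM of both strains (left) and by 4 equal groups of locus span, labelled with the median in kb (right). The share lower drops from 53.2% below 1 FPKM to 3.92% at 100 FPKM or over, and it is 17.0% for the longest loci.

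The same genes were set beside the other 6 rats of the series, 3 of each strain at 8 weeks, whose table was normalized separately. Of the 11837 genes 11679 had an estimate there, and 6.57% of these were at least 2-fold lower and 2.19% at least 2-fold higher in AN rats. Of 1475 genes at least 2-fold lower at 1 week, 92.5% were below 0 at 8 weeks and 45.5% were again at least 2-fold lower, while the median log2 ratio was -1.66 at 1 week and -0.88 at 8 weeks. Of 204 genes at least 2-fold higher at 1 week, 88.7% were above 0 at 8 weeks and 42.6% were again at least 2-fold higher. Genes chosen for a large value at 1 week tend to have a smaller value in any other samples, so the smaller medians at 8 weeks do not by themselves show a decline. The rats are different animals, but both strains carry the same background difference at both times. The first rows of the study's shortened gene table are genes it called at both times, so the medians of named members at 8 weeks are weighted as well.

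The larger neuronal, interferon and glial lists had medians nearer to 0 at 8 weeks, by unequal amounts. The median of the named receptor genes was -2.11 at 1 week and -1.88 at 8 weeks, that of synaptic genes -2.11 and -1.61, and that of interferon-stimulated genes -1.15 and -1.07. Ifit1 was measured at 19.9 FPKM in SD rats and 0.0325 in AN rats at 8 weeks, and Mmp7 had 1.33 and 40.6, so the ratio was at least as far from 0 as at 1 week for both. Oligodendrocyte genes had medians of -1.11 and -0.26, and astrocyte genes -1.51 and -0.50. Other neuronal lists had medians of -1.94 and -1.28 for axonal cytoskeleton, -1.65 and -0.93 for potassium channels and -0.96 and -0.26 for axon guidance. Nefl had 170 and 41.4 at 8 weeks.

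Some lists did not keep their side. The cell cycle list had a median of 0.82 at 1 week and -0.02 at 8 weeks, with Mki67 at 2.65 in SD and 2.77 in AN rats at 8 weeks. The Schwann cell list had -1.07 and 0.27 at 1 and 8 weeks, and the heme list -1.42 and 0.91. Of the smaller lists, clock genes had -1.15 and 0.81 and complement genes -0.77 and 0.28. The chemokine list had -0.11 over 10 genes and 0.01 over 8, both near 0 and not over the same members. Over all genes with an estimate at both times, 671 of 1475 at least 2-fold lower at 1 week were so again at 8 weeks. Of the same 1475 genes, 16 were at least 2-fold higher at 8 weeks. Of 204 at least 2-fold higher at 1 week, 87 were so again and 4 were at least 2-fold lower. Named genes are weighted towards those the study called, so the counts that follow describe them only. Among named genes with at least 1 FPKM in all 4 groups, 271 were at least 2-fold apart in the same direction at both times, 227 of them lower in AN rats. Another 11 were at least 2-fold apart in opposite directions, 9 of them lower in AN rats at 1 week. These included Hba-a2, with 215 and 934 at 8 weeks, Dbp, with 56.0 and 155, and Igf2, a growth factor of meninges and perivascular cells, with 119 and 40.6 at 1 week and 409 and 852 at 8 weeks. Cd8a, 2.62-fold higher in AN rats at 1 week, had 29.5 and 22.8 at 8 weeks. None of these differences between times was tested, since each group is present as 1 value.

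**Figure D5:**
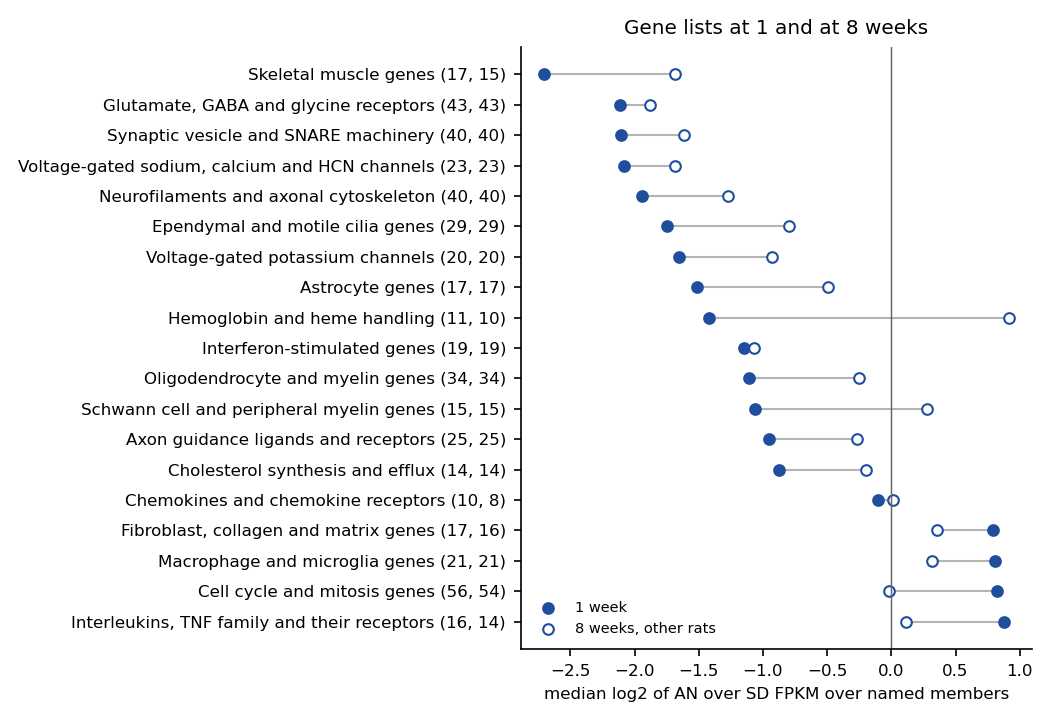
Median log2 ratio of AN over SD FPKM over the named members of 19 gene lists at 1 week (filled) and, in other rats, at 8 weeks (open), with the numbers of members at each time in brackets. Receptor and interferon genes lie at nearly the same place at both times, while hemoglobin and heme, Schwann cell, cell cycle and, by a small step, chemokine genes have medians on the other side of 0.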

How the data were processed

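RNA of 12 rats was sequenced, and 3 SD and 3 AN rats at 1 week are compared here. The authors removed adapters with cutadapt, mapped reads to the RN4 genome with TopHat 1.5.0, assembled transcripts with Cufflinks 0.0.6 with quartile normalization and compared strains with Cuffdiff, after FastQC. The FPKM values the authors deposited are 1 pooled value per strain and time. Their fold changes, test statistics and P and Q values are in the same tables and were not used. There were 0 columns of values per rat, and depth per gene is unknown.

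Log2 ratios were computed without a pseudocount. Members and the 34 gene lists were chosen with earlier results of these data known. A symbol was given only where the shortened supplementary gene table or the GRCr8 reference table pairs it with the identifier; 10 identifiers with conflicting symbols and 18 whose symbol lies on another chromosome stayed unnamed. Genes named are up to 6 per list with the largest differences, its defining markers, the 12 most extreme genes in each direction, the 10 most abundant per strain, and 8 that agree and 8 that differ in direction between times. Further members of a list, such as Gap43, Kcna3 and those closer to 0, were chosen after their values were seen. Coordinates are on RN4, counted from 1, unless GRCr8 is named. Alternatives covered filters, pseudocounts, scaling, row status, threshold and source of symbols. Python 3.11.15, pandas and scipy were used, and the counting was tested on simulated data. The values of some genes are not reported here.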

Additional observations from a re-analysis of the deposited data

How the results depend on the processing

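No paired analysis was possible because each group is present as 1 pooled value, and for the same reason no replicate could be left out. The excess of lower over higher genes held under every alternative tried. Genes at least 2-fold lower numbered 785 and not 1503 with at least 1 FPKM in both strains, and 851 with 1 FPKM added to both. Genes at least 2-fold higher numbered 130 and not 254 with 1 FPKM added, and 438 over rows of any status. At a fold of 1.5 there were 2321 lower and 897 higher, and at a fold of 4 there were 522 and 38. The median log2 ratio turned from -0.01 to 0.020 with at least 1 FPKM in both strains and to 0.010 with a geometric mean of at least 1. It was 0 by construction after centring, -0.037 over rows of any status and -0.13 with columns rescaled to the same sum, a shift of 0.12 that applies to every gene. With symbols from the reference table only, the median of the macrophage list was -0.071 over 3 genes and that of the fibroblast, collagen and matrix list -0.070 over 1 gene. Of 177 list medians recomputed 157 stayed within the 95% interval of the reported median, and of 764 single-gene ratios under the pseudocounts and scalings, 740 kept their direction and their side of the 2-fold limit. The causes of the other moves were not tested. The tables do not give the fragments behind a value, so the precision of genes below 1 FPKM is unknown.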

Other observations

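Other gene lists had few named members, so their values are given without a summary. Of 54 endothelial and pericyte genes 8 were named. Lyve1, a hyaluronan receptor of lymphatic endothelium and of some macrophages, was measured at 12.4 FPKM in SD rats and 40.9 in AN rats at 1 week. The adhesion genes Sele (0.502 and 1.36) and Selp (0.621 and 1.55) were higher in AN rats, and Vcam1, another adhesion gene, was lower (30.2 and 13.9). Among 5 lysosome and phagocytosis genes, Atp6v0d2, a proton pump subunit of osteoclasts and macrophages, had 6.19 and 22.7, while Cd9, a tetraspanin, had 818 and 535. Birc2, an inhibitor of apoptosis, had 30.8 and 67.1, and it was 1 of 3 named genes of that list. Igfbp4, an insulin-like growth factor binding protein, had 56.1 and 115.

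Csf3r, the receptor for granulocyte colony-stimulating factor, was the named member of the mast cell and granulocyte list, with 20.3 and 30.8. Both named immediate early genes lay on opposite sides, with Arc at 1.11 and 0.414 and Myc at 14.7 and 25.6. Subunits of respiratory complex I were nearly level, with Ndufb11 at 152 in each strain and Ndufa1 at 158 and 166, while Cox6a2, a muscle form of a cytochrome oxidase subunit, had 16.0 and 3.75. Both named ribosomal protein genes, Rpl30 and Rps10, are given in the report among the extremes.

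Of the 9 genes estimated but listed at 0 in 1 strain, 8 were at 0 in AN rats. RT1-N1 was listed at 4.84 in SD rats and at 0 in AN rats at 1 week, and at 4.8 and 0 in other rats at 8 weeks. Ckmt2, a muscle creatine kinase, was listed at 0.613 and 0, and Scart1 at 0.561 and 0. No fold is given for these, and whether fragments of both strains map equally well there was not tested.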
